A study of Mus musculus with 29 samples.

Results

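The methylation of 7 genes known from alveolar and alternatively activated macrophages was read from a whole-genome methylation table of mouse lung. The genes were Il4ra, Pparg, Retnla, Chil3, Mrc1, Marco and Fabp4, and their members in the table were the windows whose gene name was 1 of these 7. That gave 54 windows of 260686, and all 54 could be tested among 259167 testable windows. No measured value entered the rule. The 54 windows were spread unevenly, with 16 in Pparg, 15 in Mrc1, 10 in Il4ra, 6 in Marco, 3 each in Chil3 and Fabp4, and 1 in Retnla. They covered the whole of Retnla and Chil3 and at least 93.1% (Fabp4) of the annotated bases of the other genes.

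The DNA came from right lung tissue of 13-week-old female BALB/c offspring and was read by enzymatic methyl-sequencing of the whole genome, in which unmethylated cytosines are converted enzymatically so that methylated ones can be told from them. Dams received either saline (Sham) or fine particulate matter (PM) into the nose from before mating until weaning, and offspring were either sensitised and challenged with ovalbumin (OVA), an egg protein that induces allergic airways disease in mice, or given the vehicle. This gave 4 groups, namely Sham offspring (n = 7), Sham-OVA offspring (n = 7), PM offspring (n = 7) and PM-OVA offspring (n = 8). The lungs sequenced were taken after a lung function test with rising doses of methacholine. Airway lavage with saline is described directly after that test, without saying which sequenced lungs were lavaged. No genetic alteration was named for any group. Litters were not given, so that litter-mates could not be recognised and p-values measure only the spread between these libraries. The question was how an OVA challenge changed methylation in the offspring of either kind of dam, and whether the 2 kinds of offspring differed.

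Il4ra encodes the shared chain of the receptors for interleukin-4 and interleukin-13, which signals through the transcription factor STAT6. Macrophages that receive this signal express a set of genes known as alternative activation, among them Retnla, Chil3 and Mrc1, and these are classical markers of allergic lung inflammation in mice. Alveolar macrophages, which live in the air spaces and clear surfactant and particles, depend on the nuclear receptor Pparg and carry the scavenger receptor Marco and the lipid carrier Fabp4. Methylated CpGs near a gene start often go with silence of the gene in that cell type, while CpG-dense starts are commonly free of methylation in all cell types. Lung tissue holds many cell types, and a change in the share of a cell type and a change of methylation within cells cannot be told apart in these values.

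Each value was the percent methylation of a window of about 100 CpG cytosines, counted on both strands, in 1 library. Mean methylation over all windows ranged from 67.83% to 70.17% over the 29 libraries, and the group medians of these means were 69.02% in Sham, 68.84% in Sham-OVA, 69.27% in PM and 68.38% in PM-OVA. The table gives percentages without the reads behind each window, so that no counting error could be attached to a value. Sham replicate 1 had values in 1224 windows of the Y chromosome, against 29 to 46 in the other 28 libraries, although all animals were labelled female. None of the 54 windows lay on a sex chromosome. The OVA differences in Sham of the member windows and gene means described singly are also given without this library. Medians over windows and the differences of other named genes are given only with it. Within groups, the pooled SD of a member window had a median of 1.59 percentage points (range 0.28 to 3.16), close to the 1.49 points over all tested windows.

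The promoters of these genes differed in CpG content, and their start windows in methylation. The promoter table of RefSeq for GRCm38.p6, which gives 300 bases around a start, held 6 of the 7 genes. The number of CpGs in those 300 bases was 44 at the first Pparg start, 25 in Il4ra, 3 in Mrc1, 3 in Chil3, 2 in Retnla and 0 in Marco, against a median of 7 over 32851 promoters. In Sham, the mean methylation of the window at the start was 0.67% in Pparg and 29.5% in Il4ra, and between 67.5% and 83.1% in Mrc1, Chil3, Retnla and Marco. These windows run from 332 bp in Pparg to 15216 bp in Retnla, and all but that of Pparg lie mostly outside the 300 bases. The Il4ra window holds 113 bases of the gene, and the window after it, with 2 further transcript starts, stood at 10.5%. To show this contrast, the sequences before the first exon are given for Pparg and Il4ra, which are dense in CpG, and for Mrc1, which is sparse and whose start window changed most. They are written 5' to 3' on the plus strand of GRCm38 with CpGs in capitals, and lie at chr6:115360894-115360950, chr2:14229164-14229391 and chr7:125552021-125552119.
Pparg: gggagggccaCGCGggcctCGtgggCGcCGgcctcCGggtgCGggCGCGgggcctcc
Mrc1: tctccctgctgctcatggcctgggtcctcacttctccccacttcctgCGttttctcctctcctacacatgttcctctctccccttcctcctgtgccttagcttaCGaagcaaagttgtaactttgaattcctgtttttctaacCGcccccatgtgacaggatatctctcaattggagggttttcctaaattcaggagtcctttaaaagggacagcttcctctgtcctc
Il4ra: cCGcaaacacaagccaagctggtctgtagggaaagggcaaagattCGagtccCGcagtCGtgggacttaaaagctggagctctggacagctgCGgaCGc

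OVA moved these genes in both directions. Of the 54 windows, 11 rose and 19 fell in Sham offspring at an adjusted p under 0.05 (limma, Benjamini-Hochberg over all tested windows), against 13.3% of all tested windows that rose and 22.3% that fell. In PM offspring 8 rose and 27 fell, against 9.26% and 34.8% of all windows. The members' shares were 20.4% and 35.2% in Sham and 14.8% and 50% in PM. The members had a median difference of -1.30 points in Sham, and of -2.15 points in PM offspring, beside -0.41 and -1.03 over all windows. Without Sham replicate 1, 11 rose and 14 fell in Sham, and without Sham-OVA replicate 5 the number that fell there was 12. The shares of members that fell were then 25.9% and 22.2%, beside 20.5% and 19% of all windows in the same fits. In Il4ra, 6 of the 10 windows rose in Sham and 7 in PM with none falling. In Mrc1, 8 and 10 of the 15 windows fell and 1 rose in each kind of offspring, and in Pparg 8 and 10 of the 16 fell and 2 rose in Sham.

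All member changes were below 10 points. A differentially methylated region (DMR), which here needed both a called change and group means at least 10 points apart, was found for 0 of 54 windows in either kind of offspring by limma, although the adjusted p alone was passed by the windows counted above. Among all windows, DMRs made up 0.479% (higher) and 0.296% (lower) in Sham and 0.263% and 0.321% in PM. The 95% intervals reached beyond 10 points for 2 members, the intronic Il4ra window in both kinds of offspring and the Mrc1 start window in PM. With a minimum of 5 points, 6 windows in Sham and 3 in PM would count, against 5.96% and 5.89% of all windows. The groups of a comparison did not overlap for 3 windows that were higher and 1 that was lower in Sham (all windows 3.15% and 5.43%), and for 1 that was higher and 13 that were lower in PM (all windows 1.65% and 10.3%).

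The OVA differences in Sham and in PM come from separate libraries and can be set beside each other. Of 54 windows, 47 had the same sign in both, and 25 were called in both, each time with the same sign (7 higher, 18 lower). Over all tested windows 81.8% had the same sign and 27.3% were called in both, 7.57% as higher and 19.7% as lower. Another 5 were called in Sham alone and 10 in PM alone, and 14 in neither (all windows 8.28%, 16.8% and 47.7%). Without Sham replicate 1, 48 had the same sign and 21 were called in both (7 higher, 14 lower). Every library was also first centred on the median shift of all its windows, which takes out 0.39 points of general loss in Sham and 0.98 points in PM. The members' counts became 12 higher and 14 lower in Sham and 13 higher and 20 lower in PM. Of all windows these were 18.5% and 18.4% in Sham and 21.8% and 20.4% in PM. The share of all called windows that were higher went from 37.3% to 50.2% in Sham and from 21% to 51.6% in PM. Such a near-even split is brought about by the centring itself and is no separate result.

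**Figure D1:**
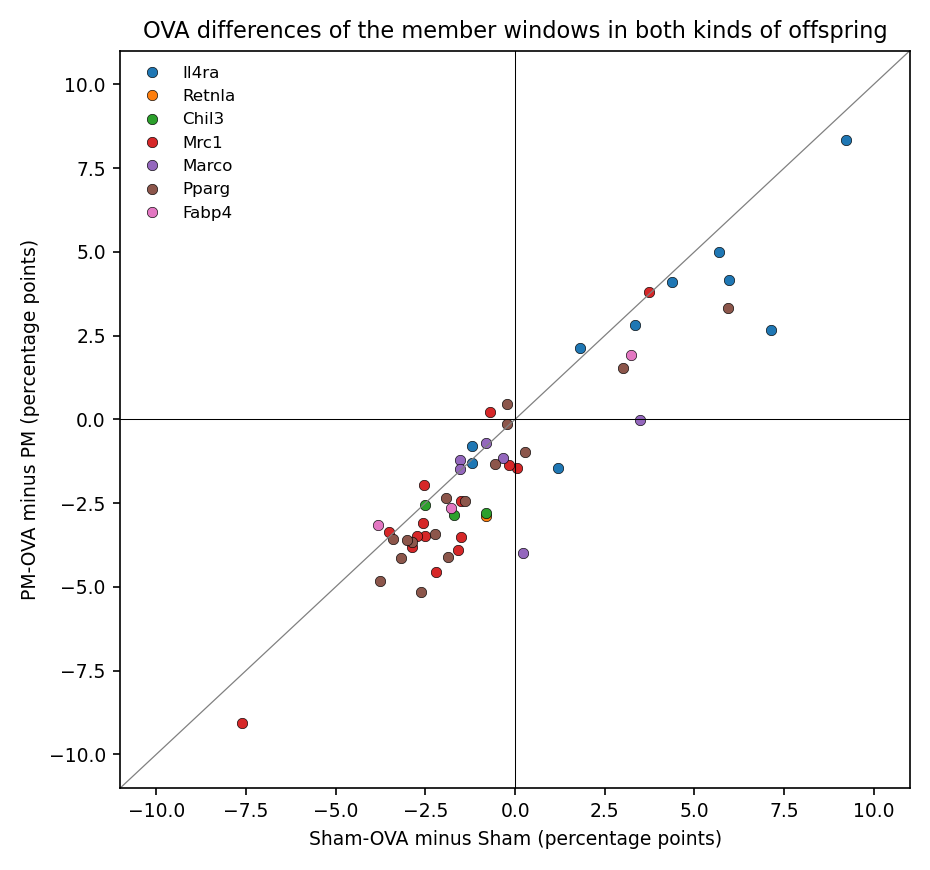
Difference in methylation after OVA in Sham offspring (x axis, percentage points) against PM offspring (y axis, percentage points) for the 54 windows, coloured by gene, with the line of equality. The intronic Il4ra window lies at the upper right, at 9.22 points in Sham, and the Mrc1 start window stands alone at the lower left, at -7.61 and -9.05 points.

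Il4ra (ENSMUSG00000030748) had the largest rise. In an intronic window at chr7:125557276-125561460 (4185 bp, no exonic base, centred 7248 bp after the gene start) the Sham libraries had 38.9%, 41.9% and 47.6% as lowest, median and highest value, and the Sham-OVA libraries 46.7%, 51.3% and 53.8%. Only the lowest Sham-OVA library lay within the Sham range. The rise was 9.22 points (SE 1.14, 95% interval 6.89 to 11.6, adjusted p = 1.26e-06). In PM libraries the values were 38.6%, 41.7% and 43.9%, and in PM-OVA libraries 47.7%, 49.7% and 52.7%. These groups did not overlap, and the rise was 8.33 points (SE 1.10, 95% interval 6.08 to 10.6, adjusted p = 2.14e-06). Without Sham replicate 1 the rise in Sham was 9.15 points. The 200 bases of this window with most CpGs, at chr7:125560600-125560799 on the plus strand of GRCm38, hold 7 CpGs, in capitals.
Il4ra, intronic: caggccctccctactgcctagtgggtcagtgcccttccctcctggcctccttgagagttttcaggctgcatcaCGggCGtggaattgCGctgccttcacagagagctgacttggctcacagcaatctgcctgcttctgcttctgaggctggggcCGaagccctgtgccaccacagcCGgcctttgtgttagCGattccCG

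The rise was not limited to that intron. The window up to the Il4ra start (chr7:125548699-125552232, with 2000 bases of promoter and 113 of the first exon) had Sham values of 28.3%, 29.6% and 30.5% and Sham-OVA values of 32.1%, 32.7% and 34.2%, which did not overlap. It rose by 3.35 points (adjusted p = 0.000388) in Sham and by 2.81 points in PM (adjusted p = 0.00105), where PM ranged from 26.8% to 31.7% and PM-OVA from 30.7% to 33.7%. The rise in Sham was 3.15 points without Sham replicate 1. The next window, just inside the gene and named after its values were seen, holds 2 further transcript starts at 31.2 CpG dinucleotides per kb and stood at 10.5% ± 0.88 (SD, n = 7) in Sham. Its differences were -1.21 points (95% interval -2.64 to 0.22) and -0.81 points (-2.19 to 0.57), neither called. Its mean in PM-OVA was 8.96% ± 1.61 (SD, n = 8). Towards the end of the gene, a window with 2384 of 3125 bases in the annotated untranslated region (chr7:125574733-125577857), also named after its values were seen, rose by 5.96 points in Sham offspring and 4.16 points in PM offspring. Averaged over its 10 windows, Il4ra rose from 46.5% ± 0.84 to 50.1% ± 1.02 in Sham (SD, n = 7 each) and from 46.4% ± 1.04 (n = 7) to 49.0% ± 0.74 (n = 8) in PM, with limma adjusted p-values of 2.91e-06 and 8.60e-05. In Sham without replicate 1 the rises were 5.93 points near the end and 3.60 points for the gene mean, and the difference just inside the gene was -1.19 points.

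Pparg (ENSMUSG00000000440), the nuclear receptor on which alveolar macrophage identity rests, fell in windows along its long gene body. The window at its first start (chr6:115360818-115361149, 332 bp) held at most 1.39% in any of the 29 libraries. There the differences were -0.22 points in Sham (95% interval -0.78 to 0.35, and -0.29 without Sham replicate 1) and -0.14 points in PM (-0.69 to 0.40). Further in, 8 of 16 windows fell in Sham and 10 in PM, where none rose (22.3% and 34.8% of all windows fell). With libraries centred, 2 rose and 6 fell in Sham and 4 rose and 8 fell in PM, and these 4 include the start window, where the shift subtracted is larger than the methylation level (0.68 points, adjusted p = 0.00726). For 6 of the windows that fell in PM before centring the groups did not overlap (10.3% of all windows were lower without overlap). The window with the largest fall in PM, named after its values were seen, lies at chr6:115425576-115439887 and holds 14264 intronic bases of 14312. PM values there were 82.6%, 83.9% and 84.8% and PM-OVA values 77.7%, 78.6% and 80.1%, a fall of 5.14 points (95% interval -6.34 to -3.95). In Sham it fell by 2.61 points, from values of 81.1%, 82.3% and 83.7% to 77.8%, 79.5% and 83.0%, which overlapped, and without Sham replicate 1 by 2.83 points.

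Towards the end of Pparg, 2 windows went the other way in Sham. The one with the larger rise, at chr6:115462531-115471272, which also overlaps the gene model Gm44079, had 50.1%, 53.0% and 56.5% in Sham and 55.8%, 60.0% and 63.4% in Sham-OVA. Both ranges touched, and the rise was 5.95 points (95% interval 3.07 to 8.82, adjusted p = 0.00205). In PM and PM-OVA, where values ran from 52.0% to 60.0% and from 56.0% to 63.9%, the difference was 3.31 points (0.52 to 6.09), with an adjusted p of 0.0551 that missed the threshold and that became 0.0107 with libraries centred and fell below 0.05 on leaving out any 1 of 8 libraries. The rise in Sham was 6.29 points when Sham replicate 1 was left out. The mean over all 16 windows fell by 1.13 points in Sham (adjusted p = 0.0266) and by 2.15 points in PM (adjusted p = 5.11e-05), or by 0.73 and 1.18 points with libraries centred. The fall in Sham lost its call on leaving out any 1 of 6 libraries, namely Sham replicates 1 and 4 and Sham-OVA replicates 2, 3, 5 and 6 (adjusted p up to 0.0717, and 0.0546 with a fall of 1.04 points without Sham replicate 1), and in a fit of the 2 groups alone (0.0954).

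Retnla (ENSMUSG00000061100), which encodes the secreted resistin-like molecule alpha, is so short and so poor in CpG that the whole gene falls into 1 window of 15216 bp at chr16:48838279-48853494. Of that window 1911 bases belong to the gene. Sham values were 81.6%, 83.4% and 84.1% and Sham-OVA values 79.7%, 82.5% and 85.3%, with a difference of -0.82 points (95% interval -2.28 to 0.64, adjusted p = 0.410), and of -0.95 points without Sham replicate 1. PM values were 81.4%, 84.0% and 85.8% and PM-OVA values 78.8%, 81.4% and 82.7%, which overlapped, and the window fell by 2.88 points (95% interval -4.30 to -1.47, adjusted p = 0.00142), or by 1.90 points with libraries centred. The promoter of Retnla was the only 1 among the members' entries in the table that held TTC and GAA 4 bases apart, the spacing of STAT6 sites, on either strand, and the only 1 with GAGGAAGT, a core of PU.1 sites. Of all promoters 6.95% held the former and 3.2% the latter. The bases before the first exon, at chr16:48842359-48842550 on the plus strand, are given with that STAT6 spacing in capitals, and they contain no CpG.
Retnla: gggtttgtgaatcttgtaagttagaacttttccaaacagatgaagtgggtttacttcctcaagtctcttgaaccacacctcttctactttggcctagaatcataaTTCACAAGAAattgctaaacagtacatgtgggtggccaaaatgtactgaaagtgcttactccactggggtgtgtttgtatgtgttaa

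Chil3 (ENSMUSG00000040809), the chitinase-like protein whose crystals form in inflamed mouse airways, fell along its whole length in PM. Its 3 windows had 69.7% to 82.8% methylation as a mean of the 4 groups. In PM all 3 fell, by 2.56 to 2.85 points, or by 1.58 to 1.87 points with libraries centred, and in Sham the differences ran from -2.52 to -0.82 points with 1 call. At the start (chr3:106163365-106177057, 13693 bp) Sham values were 68.6%, 71.2% and 72.3% and Sham-OVA values 66.5%, 69.6% and 71.2%, so that the ranges largely overlapped and the adjusted p was 0.131. The PM values of 69.0%, 69.9% and 73.7% hardly overlapped with the PM-OVA values of 65.8%, 68.0% and 69.1%. At the end of the gene (chr3:106142002-106150703) the window fell by 2.52 points in Sham (adjusted p = 0.0194) and by 2.56 points in PM (adjusted p = 0.0132). The fall in Sham had an adjusted p of up to 0.0576 on leaving out Sham replicate 2 or Sham-OVA replicate 5, and without Sham replicate 1 it was called, with a difference of -2.73 points (-1.69 points at the start). With libraries centred, the fall at the end in PM was 1.58 points with an adjusted p of 0.0679.

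Mrc1 (ENSMUSG00000026712), the mannose receptor CD206, had the largest fall of the 54 windows, at its start. The window at chr2:14226915-14230340 (3426 bp, 2000 of them promoter, 767 intronic and 182 exonic) had 69.5%, 73.4% and 74.9% in Sham and 60.7%, 65.1% and 70.6% in Sham-OVA. Only the ends of these ranges met, and the mean fell by 7.61 points (SE 1.05, 95% interval -9.75 to -5.47, adjusted p = 3.58e-06). PM values of 72.2%, 73.4% and 75.7% lay clear of the PM-OVA values of 62.9%, 65.1% and 66.4%, and the mean fell by 9.05 points (SE 1.01, 95% interval -11.1 to -6.98, adjusted p = 1.09e-07). In Sham without replicate 1 the window fell by 7.63 points. The next window, inside the gene at chr2:14230357-14238202 and named after its values were seen, rose by 3.73 points in Sham offspring (3.77 without replicate 1) and 3.80 points in PM offspring.

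Over the whole of Mrc1, the start window included, 8 of its 15 windows fell in Sham and 10 in PM, or 6 and 7 with libraries centred. Groups did not overlap for 6 of them in PM and 1 in Sham. Of all windows 22.3% fell in Sham and 34.8% in PM, or 18.4% and 20.4% with libraries centred. Those lower without overlap were 10.3% of all windows in PM and 5.43% in Sham. The gene mean fell by 1.89 points in Sham (adjusted p = 6.79e-05) and by 2.77 points in PM (adjusted p = 1.13e-07), from 81.3% ± 0.48 (SD, n = 7) and 81.7% ± 0.59 (n = 7). With libraries centred the mean in PM fell by 1.79 points. Without Sham replicate 1, 6 windows fell in Sham and the gene mean fell by 1.84 points there.

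Marco (ENSMUSG00000026390), a scavenger receptor that binds particles and bacteria, had 1 called window in Sham and another in PM. At its start (chr1:120504237-120509424) Sham values of 64.7%, 68.5% and 69.2% lay clear of the Sham-OVA values of 70.05%, 70.5% and 72.8%, a rise of 3.47 points (95% interval 1.92 to 5.02, adjusted p = 0.00140). PM values of 67.1%, 68.7% and 71.6% and PM-OVA values of 67.1%, 68.9% and 71.6% covered the same range, and the difference was -0.03 points (95% interval -1.53 to 1.47). Leaving out Sham replicate 1 gave a rise of 3.63 points in Sham. The middle of the gene (chr1:120492046-120499110) has 6623 intronic bases of 7065. Its Sham values of 65.8%, 66.8% and 67.3% lay inside the Sham-OVA range of 64.2%, 65.8% and 71.6%, with a difference of 0.21 points (95% interval -1.56 to 1.98), or 0.27 without Sham replicate 1. PM values of 67.1%, 68.2% and 71.3% did not overlap with PM-OVA values of 63.2%, 64.4% and 66.4%, and the window fell by 3.99 points (adjusted p = 0.000729). The mean over its 6 windows fell by 1.43 points in PM (adjusted p = 0.00968), a fall of 0.45 points and an adjusted p of 0.259 with libraries centred.

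Fabp4 (ENSMUSG00000062515), the fatty acid carrier of fat cells and alveolar macrophages, changed in opposite directions at its start and in its body. At the start (chr3:10207691-10212047) Sham values of 71.4%, 71.8% and 75.5% and Sham-OVA values of 70.8%, 75.7% and 78.4% overlapped widely, and the mean rose by 3.23 points (95% interval 1.23 to 5.23, adjusted p = 0.0118). Without Sham replicate 1, whose 75.5% stood apart from the other Sham libraries, the rise was 3.74 points (adjusted p = 0.00477). The difference in PM was 1.91 points (-0.03 to 3.84, adjusted p = 0.114). In the body (chr3:10204465-10207676) methylation fell by 3.82 points in Sham, from values of 62.3%, 68.3% and 72.7% to 61.1%, 63.9% and 67.4%, and by 3.17 points in PM, from 66.03%, 68.2% and 69.3% to 61.5%, 64.9% and 68.6%. Both falls were close to the threshold, with adjusted p-values of 0.0235 and 0.0480, and neither held on leaving out some of the single libraries. The call in Sham was lost without Sham replicate 1, 3 or 7 or Sham-OVA replicate 5 (adjusted p up to 0.0701, with a difference of -3.01 points without Sham replicate 1), and the call in PM on leaving out any 1 of 18 libraries (up to 0.0976) and with libraries centred (0.190). The gene mean was called in neither kind of offspring, with a difference of -0.79 points in Sham, or -0.35 points without Sham replicate 1. The median of its 3 windows, which takes the window of middle level, was called in Sham. It gave the rise of 3.23 points (limma adjusted p = 0.00999) already given for the start window.

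**Figure D2:**
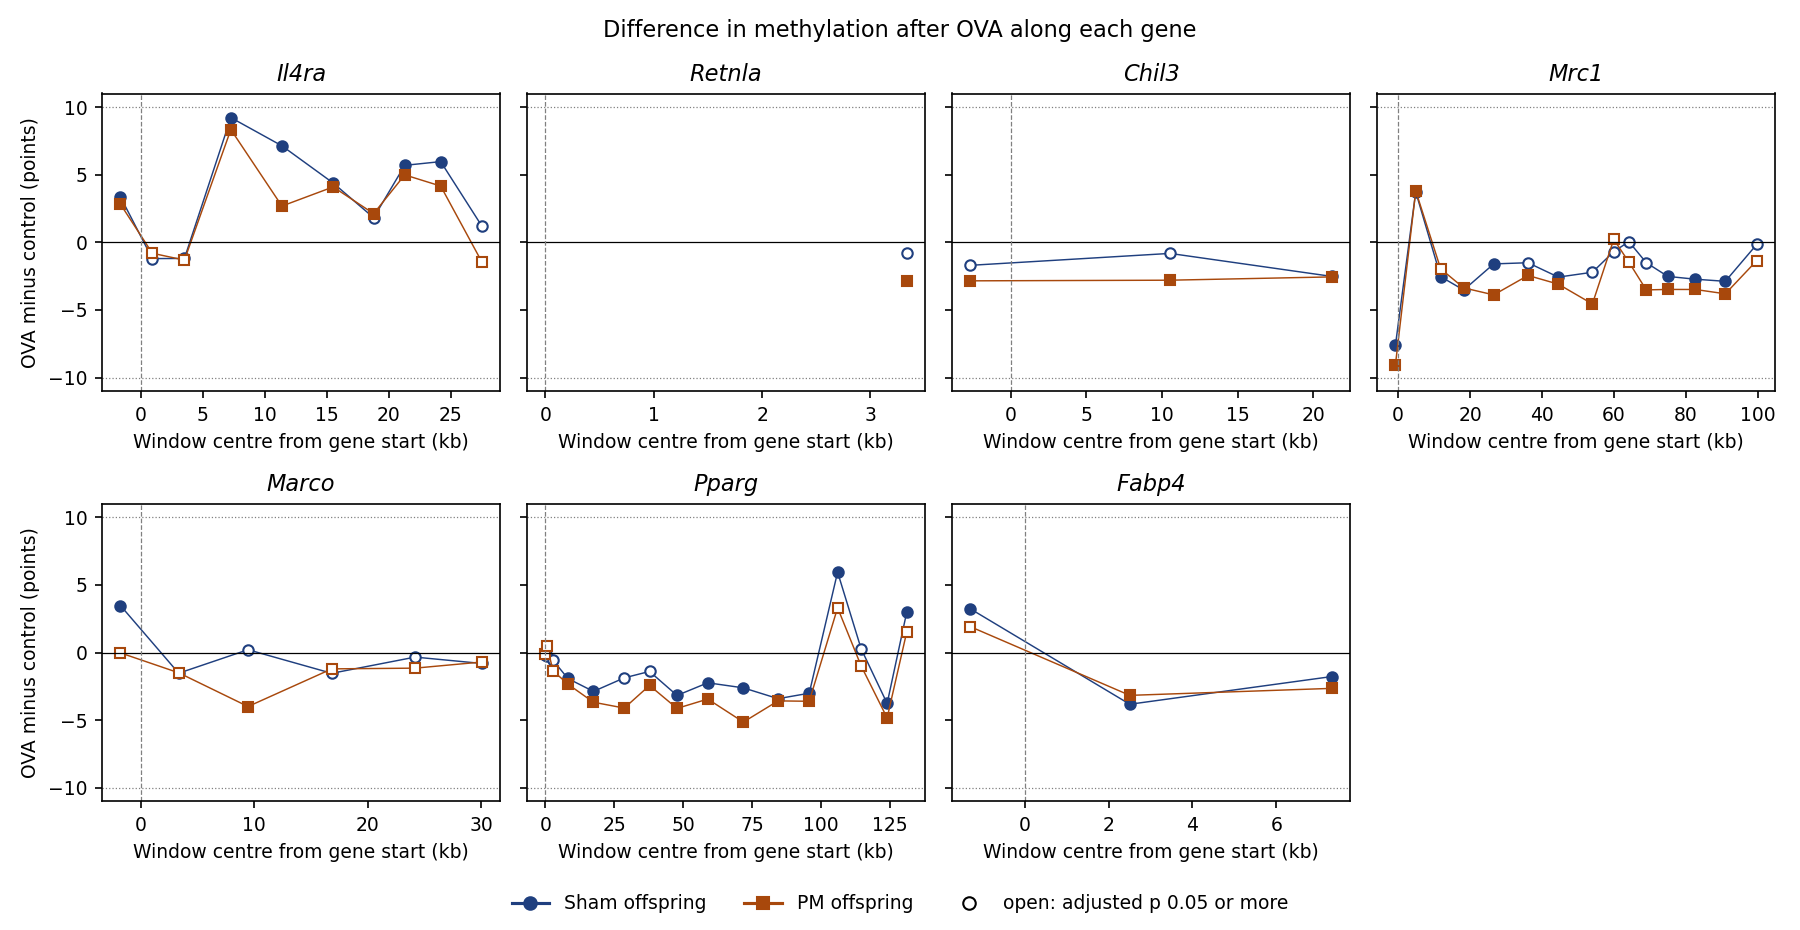
Difference in methylation after OVA (y axis, percentage points) of each window against the distance of its centre from the gene start (x axis, kb, positive into the gene) in Sham (circles) and PM offspring (squares), with filled points for an adjusted p under 0.05 and dotted lines at 10 points. Most Il4ra windows lie above 0, the Mrc1 start reaches -9.05 points in PM, and most Pparg and Mrc1 windows lie below 0.

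**Figure D3:**
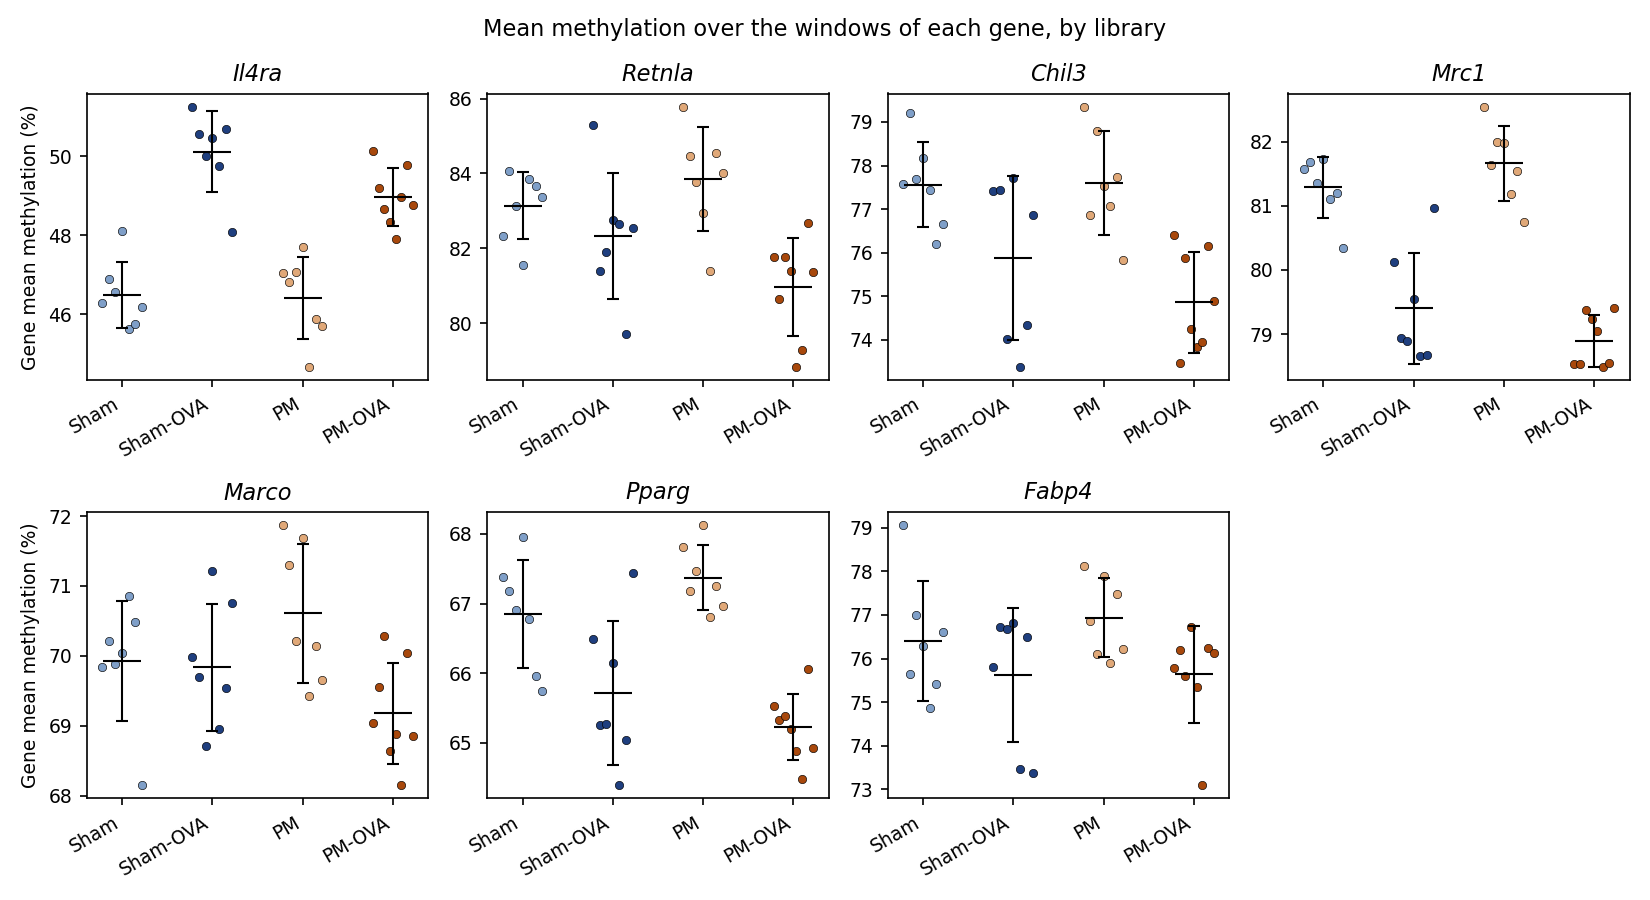
Mean methylation (y axis, %, a scale of its own in each panel that does not start at 0) over the windows of each gene in every library, by group, with the group mean and SD as bars (n = 7, 7, 7 and 8). Il4ra is higher in the OVA groups, Mrc1 and Pparg lower, and Fabp4 groups overlap.

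Over the 7 gene means, Il4ra rose in both kinds of offspring. Mrc1 and Pparg fell in both, the latter in Sham with the limits given above, and Retnla, Chil3 and Marco were called lower in PM only, which by itself does not show a difference between the offspring. Among 38141 gene names, 11.9% rose and 27.5% fell in Sham, and 6.89% rose and 47.1% fell in PM. Leaving out 1 library at a time, 2 to 4 gene means were called in Sham, with Pparg the one lost and Chil3 the one gained, and 6 in PM. With the median over windows in place of the mean, Mrc1 in Sham and Marco in PM were not called (limma adjusted p = 0.0872 and 0.0682), and Fabp4 in Sham was called higher as given above. The rises of Il4ra were then 8.18 points in Sham and 5.51 points in PM. This median takes the windows of middle level, which in Il4ra are the intronic window and the one after it. It is therefore no summary of change over the whole gene.

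Windows were also sorted by their starting level. To keep the level apart from the difference, the level was taken from the control group of the other kind of dam, whose libraries do not enter the difference. Of 19 member windows above 80%, none rose and 11 fell in Sham, and none rose and 16 fell in PM (all windows of that level 7.47% and 29.9%, 4.23% and 45.5%). Between 70% and 80%, 2 of 17 rose and 7 fell in Sham, and 1 rose and 9 fell in PM (all windows 12% and 23.2%, 7.26% and 39%). Between 50% and 70%, 7 of 11 rose and 1 fell in Sham, and 4 of 10 rose and 2 fell in PM (all windows 22.3% and 15%, 16.4% and 24.2%). The members between 20% and 50% were all Il4ra windows, of which 2 of 4 rose in Sham and 3 of 5 in PM and none fell (all windows 24.6% and 12.1%, 20.2% and 15.3%). Below 20% were only the 3 windows at the CpG-dense starts of Pparg and Il4ra, and none was called (all windows 20.1% and 4.46%, 17.6% and 5.63%).

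Maternal PM alone left no called window. Comparing PM with Sham, 0% of all tested windows and 0 of the 54 members passed an adjusted p of 0.05 by limma, and 4 members passed an unadjusted p of 0.05, against 5.79% of all windows. The member differences ran from -1.52 to 2.83 points, and the widest 95% interval bounds were -3.69 and 5.44 points. With Sham replicate 1 left out the differences ran from -1.44 to 2.90 points. Comparing PM-OVA with Sham-OVA, 0% of all windows and 0 members passed, and 4 members passed unadjusted (all windows 5.96%), with differences from -2.12 to 1.08 points and bounds of -4.89 and 3.53 points. None of the 7 gene means was called in either comparison (0% of all gene names).

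Whether OVA acted differently in PM and in Sham offspring was tested as the difference of the 2 OVA differences. None of the windows passed an adjusted p of 0.05 (0% of all tested windows, and 0% of gene names, limma), and the smallest adjusted p of a member was 0.554. At an unadjusted p of 0.05, 8 members passed (14.8%), beside 7.4% of all windows, and all 8 had a negative sign, meaning more loss or less gain after OVA in PM, as had 92.4% of all windows that passed. With libraries centred, 6 members passed, 5 of them negative, beside 5.61% of all windows. Of all windows that passed, 50.5% were negative, a split that the centring itself brings close to even. Without Sham replicate 1, 7 members passed, all negative (7.28% of all windows passed, 92% of them negative). Both Marco windows described above were among them, with -4.20 points in the middle of the gene (unadjusted p = 0.00260, 95% interval -6.66 to -1.74) and -3.50 points at the start (unadjusted p = 0.00419, -5.66 to -1.34), or -4.27 and -3.66 points without Sham replicate 1. An Il4ra window at chr7:125561468-125565511, picked for its value, rose by 7.13 points in Sham offspring (6.81 without replicate 1) and 2.68 points in PM offspring (difference -4.45 points, unadjusted p = 0.00411, and -4.13 points without Sham replicate 1). Its call in PM was lost without PM replicate 7 or PM-OVA replicate 1, 2 or 5 (adjusted p up to 0.0936). The Pparg window with the largest fall in PM gave -2.53 points (unadjusted p = 0.00505). The median of this difference over all windows was itself -0.59 points, and over the members -0.90.

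**Figure D4:**
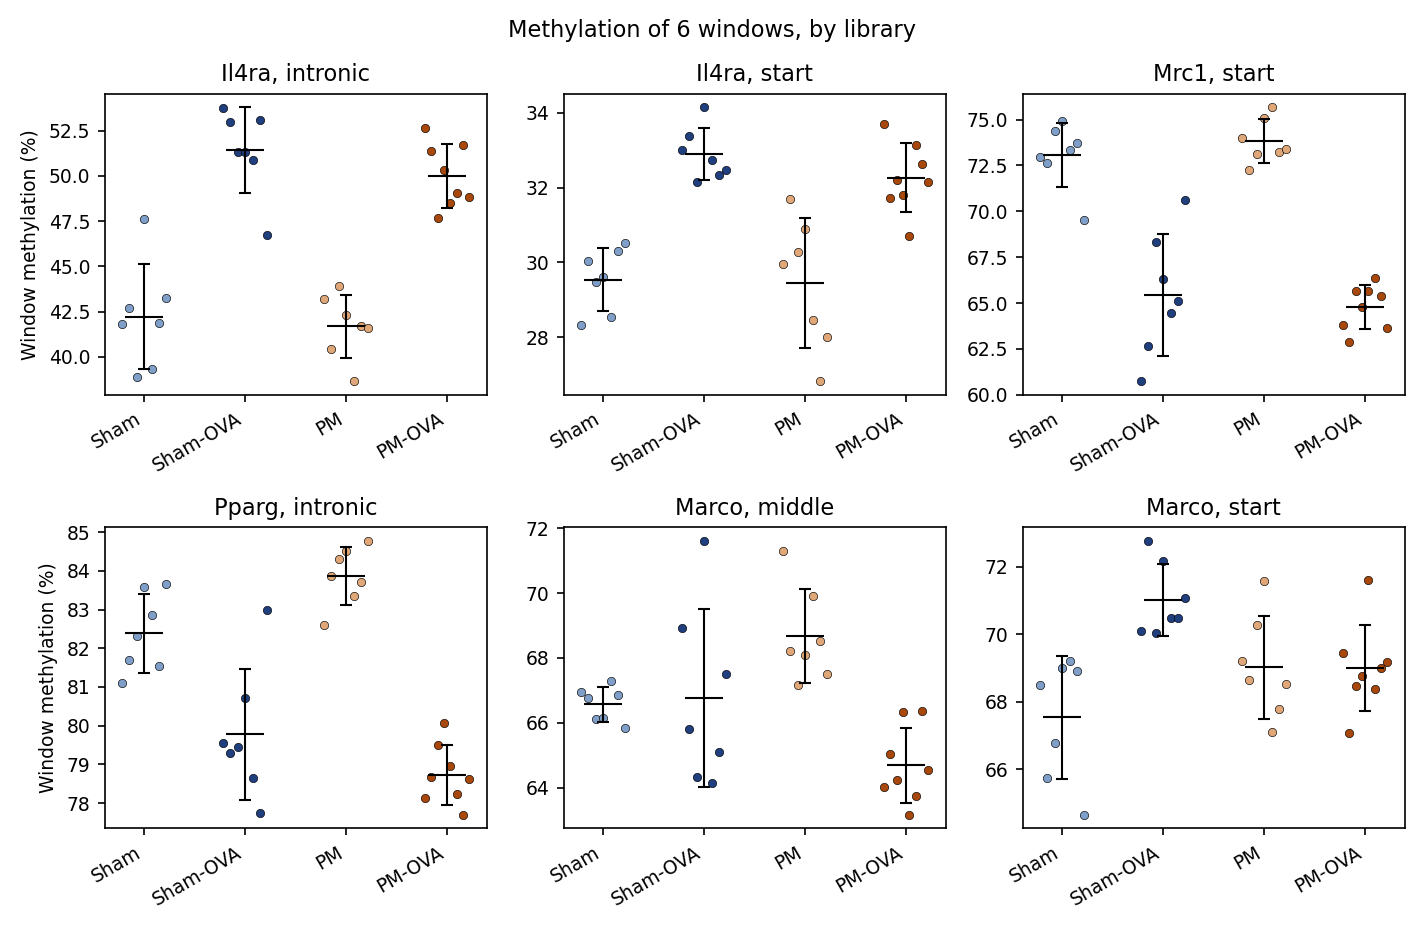
Methylation (y axis, %, a scale of its own in each panel that does not start at 0) of 6 windows in every library, by group, with group mean and SD as bars (n = 7, 7, 7 and 8). The Il4ra windows are higher and the Mrc1 window lower in both OVA groups, and the Marco start window is higher in Sham-OVA and the middle window lower in PM-OVA than in their controls.

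Other genes of the same pathways held larger differences. Of 40 further genes of interleukin-4 signalling and of the macrophage programmes, 39 had windows, 233 in all. Of these 42 rose and 70 fell in Sham (18% and 30%), and 33 rose and 94 fell in PM (14.2% and 40.3%), beside 13.3% and 22.3% of all windows in Sham and 9.26% and 34.8% in PM, with 9 DMRs higher and 5 lower in Sham and 7 higher and 7 lower in PM. The list was drawn up with earlier results of these data known. The myeloid transcription factor Spi1 (PU.1) had 3 windows that were DMRs in at least 1 kind of offspring. At chr2:91096853-91099453 it fell from 67.7% ± 3.07 to 51.9% ± 3.68 in Sham (SD, n = 7 each) and from 66.9% ± 3.52 (n = 7) to 50.1% ± 2.20 (n = 8) in PM, whereas at chr2:91113404-91115447 it rose by 13.9 and 13.5 points. The kinase Jak3, which acts at receptors that share the common gamma chain, had 6 such windows, all higher, with 19.8 points in Sham and 13.6 points in PM at chr8:71685838-71686845. Csf2rb, the signalling chain of the receptor for the growth factor of alveolar macrophages, fell by 12.6 points in Sham and 11.2 points in PM in its first window. A window of Irf4, a transcription factor of alternative activation, fell by 7.16 points in Sham offspring and 11.6 points in PM offspring, and 1 of Pdcd1lg2, a ligand marking alternative activation, by 11.4 and 11.9 points. The other genes of the list with a DMR were Bhlhe41, Csf2ra, Kdm6b and Klf4, with 1 window each. The Csf2ra window rose, by 17.3 points in Sham and 12.97 points in PM. Those of Kdm6b and Klf4 also rose in both kinds of offspring, and that of Bhlhe41 fell in both.

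Genes that mark other lung cells were read in the same tissue, against the shares of all windows given above. All windows of 5 eosinophil genes that were called fell, 10 of 20 in Sham (50%) and 13 of 20 in PM (65%), while those of 6 alveolar epithelial genes rose, 13 of 22 (59.1%) and 8 of 22 (36.4%). Of 69 windows of 5 endothelial genes, 33 rose and 5 fell in Sham (47.8% and 7.25%), and 31 rose and 8 fell in PM (44.9% and 11.6%). For 6 T cell genes 8 rose and 15 fell of 46 in Sham (17.4% and 32.6%), and 5 rose and 15 fell in PM (10.9% and 32.6%), the latter shares near those of all windows. For 4 B cell genes 16 rose and 14 fell of 58 in Sham (27.6% and 24.1%), and 13 rose and 18 fell in PM (22.4% and 31%). The part of such cells in the member values was not tested. In lung tissue the start windows of the macrophage genes other than Pparg and Il4ra had means of 67.5% to 83.1% in Sham. All values describe the tissue as a whole, and no macrophage population was measured by itself.

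The windows of other genes whose values ran most like those of the intronic Il4ra window, by the mean absolute difference over the 29 libraries after each window's own mean was subtracted, lay in Trim8 (1.14 points), Rab31 (1.26), Rbms1 (1.33), Chd3 (1.33) and Mtus1 (1.36). Their levels differed, from 19.1% for Trim8 to 69.8% for Rbms1 in Sham.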

How the data were processed

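According to the labels and methods of the study, the authors used Trim Galore for trimming and DRAGEN for alignment (GRCm38) and methylation calls, then averaged the percentage of each CpG over windows in SeqMonk and kept windows overlapping an annotated gene. The deposited values are percent methylation per window and library, with no counts or coverage per window and no stated normalisation between libraries, so the depth behind a value is not known and a count test could not be used. Columns were matched to samples by library name. Percentages were transformed to log2((percent + 1)/(100 - percent + 1)) and fitted with 4 group means over all 29 libraries in limma 3.58.1 (R 4.3.3), for windows with at least 3 values per group, with 2-sided moderated tests adjusted by Benjamini-Hochberg over 259167 windows. Differences, SEs and 95% intervals, not adjusted for the number of windows, are in percentage points from the same model on the percent scale. Gene means over the windows of a name were fitted likewise. The fit was tested on simulated data. Exonic, intronic, untranslated and promoter bases (2000 before the start) are from GENCODE M21. Sequences are from the GRCm38 genome and RefSeq, read with pysam 0.24.0.

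The members, the lists and the tests were chosen with earlier results of these data known. Each gene's start window and its window with the largest mean OVA difference are described, and the other windows described were chosen after their values were seen, as said there. Alternatives were another offset, scale, filter, centring, weights, block, thresholds and every library left out. Another gene of the same rule is not reported here. The replicate numbers of the sample titles did not pair the libraries. They differ from the numbers in some names of OVA libraries, and pairing by name was not tested. PM-OVA replicates 7 and 8 are named Rel1 and Rel2, and without them 7 windows rose and 27 fell in PM.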

Additional observations from a re-analysis of the deposited data

Results flagged for a closer look

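In 72 sets of values (12 windows and the means of the 6 genes with more than 1 window in each of 4 groups), 5 had a library far from the others by Dixon's criterion, and chance alone gives about 1 in 20 sets. In the Il4ra intronic window, Sham-OVA replicate 7 was lowest at 46.7%, with the next library at 50.9%. In the Mrc1 start window, Sham replicate 7 was lowest at 69.5%, with the next at 72.6%, and the same library was lowest for the Marco gene mean at 68.1%, with the next at 69.8%. In the Fabp4 start window, Sham replicate 1, the library with values on the Y chromosome, was highest at 75.5%, with the next at 72.9%. For the Fabp4 gene mean, PM-OVA replicate 6 was lowest at 73.1%, with the next at 75.3%.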

How the results depend on the processing

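The rise of the Il4ra intronic window and the fall of the Mrc1 start window passed an adjusted p of 0.05 under every alternative that kept this threshold. Of these 2 windows, the Mrc1 window in PM alone passed the stricter 0.000001 (adjusted p = 1.09e-07), with 1.26e-06 and 2.14e-06 for Il4ra in Sham and PM and 3.58e-06 for Mrc1 in Sham. With libraries centred, 13 windows rose in PM (8 without centring), and the Pparg start window in PM turned to a rise of 0.68 points (adjusted p = 0.00726), where the shift subtracted is larger than its methylation level. With a minimum of 5 points, 6 windows in Sham and 3 in PM were DMRs. Leaving out 1 library gave 0 to 1 DMRs in Sham (1 without Sham replicate 4 or Sham-OVA replicate 7, the Il4ra window) and 12 to 19 windows that fell in Sham, with 12 without Sham-OVA replicate 5. For the median over windows, the Fabp4 gene value in Sham was 3.23 points (adjusted p = 0.00999), the difference of its start window. The mean gave -0.79 points, or -0.35 points without Sham replicate 1. With the median, Mrc1 in Sham and Marco in PM lost their calls (adjusted p = 0.0872 and 0.0682). Of single windows and gene means, 105 calls were lost and 24 gained over all libraries left out, against 8716 comparisons that kept direction and side, and 29 were lost and 10 gained under the other alternatives, against 3018 that kept them. Causes were not tested. Libraries of different groups with the same replicate number in their titles correlated with a median r of 0.02 (-0.07 to 0.13). Of 29 libraries, 6 correlated best with their own number. With replicate number as a block, 18 windows fell in Sham in place of 19, 4 gene means in place of 3 were called there, and the numbers of windows that rose in Sham (11) and rose or fell in PM (8 and 27) were those without it. The interaction has no value from the 2 groups of a contrast alone. Without reads per window, the precision rests on the spread between libraries.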
